A study of Mus musculus with 4 samples.

Results

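Genes of the airway and of the alveoli of the lung were read on arrays of Sca-1 cells isolated from mouse hearts. The 40 genes described here mark secretory and ciliated cells of the airway lining, the alveolar epithelium, epithelial cells in general, or are transcription factors of lung epithelium. They were chosen by symbol, with the large differences between single pools of cells already known, out of 18193 genes that have a probe set with their symbol alone. Of the 40 genes, 39 had such a probe set, with 55 probe sets in all, and Lamp3 was read only on a probe set that it shares with Ppid and therefore has no value of its own. The classes hold 12 airway secretory genes, 3 ciliated cell genes, 11 alveolar genes, 11 general epithelial genes and 3 transcription factors.

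The airway lining is made of ciliated cells, which move mucus, and of club cells, which release secretoglobins and antimicrobial proteins and carry enzymes that convert foreign compounds. Alveoli are lined by flat type 1 cells, across which gas is exchanged, and by type 2 cells, which make surfactant. All of these cells hold keratin filaments and are joined by E-cadherin and claudins, as are epithelia of other organs. The working heart muscle has no airway epithelium, and its outer surface is covered by mesothelium, a flat cell layer that also contains keratins.

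Cyc mice were αMHC-CyclinT1/Gαq overexpressing double transgenics with heart failure, whose transgenes are driven by the αMHC promoter, which is active in cardiomyocytes. Wt mice were wildtype littermates. All mice were of the FVB strain, 6 weeks old and of either sex, and all cells were enriched magnetically for the surface protein Sca-1 and not cultured. Each genotype had 2 pools of cells from the hearts of several mice, 1 array per pool and 250 ng of RNA per array. The replicate numbers 1 and 2 were taken as the 2 independent experiments of the protocol, and the pools are called Cyc 1, Cyc 2, Wt 1 and Wt 2.

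Values are the deposited normalized intensities, which can be below 0, and an intensity under 50 was taken as near background. Differences are on the scale of log2(intensity + 16) with values below 0 set to 0, which understates the change of dim genes. Where the dimmer pool lay under 50, a fold is given as a lower bound, the brighter intensity over 50. Each gene is represented by its probe set of highest mean intensity. Since single pools are set side by side, these folds have no replicate error, and the precision is limited by the number of arrays. In such bulk samples, fewer cells of a type and less RNA per cell cannot be told apart.

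Over all probe sets the arrays were not alike. Between 18460 and 21444 probe sets had an intensity of 50 or more, most in Cyc 2 and fewest in Cyc 1, and the median log2 difference over all genes that reached 50 in any pool was 0.32 for Cyc 2 minus Cyc 1, 0.08 for Cyc 2 minus Wt 2 and -0.04 for Cyc 1 minus Wt 1. The 24 probe sets of spiked poly-A controls had a median of 258.8 in Cyc 1 and -0.9 in Cyc 2, against 231.9 in Wt 1 and 0.3 in Wt 2, so they separate the experiments. Of 7 probe sets for Gnaq, the gene of the Gαq transgene, 1 separated the genotypes, with 723.6 and 492.3 in Cyc 1 and Cyc 2, against 22.7 and 4.1 in Wt 1 and Wt 2. Sex-linked genes also differed between the pools. Xist, the RNA that silences 1 X chromosome in females, read 1858.5 in Cyc 1 and 5677.1 in Cyc 2, against 2317.2 in Wt 1 and 21.2 in Wt 2, and the Y-linked gene Uty read 124.7 and 78.3 in Cyc 1 and Cyc 2, against 147.7 and 590.2 in Wt 1 and Wt 2. The probe sets of the gene for Sca-1 itself were not analysed here, while the 11 fibroblast markers and 10 endothelial markers with a probe set were at 50 or more in every pool.

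The airway secretory genes were high in Cyc 2 and, at a lower level, in Wt 1, and were near background or low in Cyc 1 and Wt 2. The high pools thus came from different genotypes and from different experiments. In experiment 1 these genes were lower in Cyc than in Wt, and in experiment 2 they were higher in Cyc than in Wt. For the 12 genes the median log2 difference, Cyc minus Wt, was -1.97 in experiment 1 and 5.27 in experiment 2, where the medians over all 18193 genes were 0.00 and 0.06. With 1 or 50 added in place of 16 the airway medians were -3.15 or -1.33 in experiment 1 and 6.78 or 4.04 in experiment 2.

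Promoters are shown for members that share this pattern, with 4 examples from the airway secretory class. Each is the window from 250 bases before to 50 bases after the gene's start in RefSeq (GRCm38.p6), written 5′ to 3′ on the strand of the gene. The windows are Bpifa1, chr2:154142630-154142929 on the plus strand, Scgb3a1, chr11:49663345-49663644 on the plus strand, Cyp2f2, chr7:27119705-27120004 on the plus strand, and Cbr2, chr11:120731972-120732271 on the minus strand. Capitals mark matches on either strand to a forkhead motif (TGTTTAC, also with A as the second or G as the sixth base) or to an NKX2 motif (TNAAGTG).
Bpifa1: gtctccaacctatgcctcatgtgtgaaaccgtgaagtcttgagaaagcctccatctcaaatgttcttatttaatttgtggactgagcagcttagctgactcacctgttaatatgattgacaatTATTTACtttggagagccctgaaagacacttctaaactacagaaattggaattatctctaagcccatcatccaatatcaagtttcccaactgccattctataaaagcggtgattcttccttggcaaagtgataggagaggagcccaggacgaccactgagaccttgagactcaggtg
Scgb3a1: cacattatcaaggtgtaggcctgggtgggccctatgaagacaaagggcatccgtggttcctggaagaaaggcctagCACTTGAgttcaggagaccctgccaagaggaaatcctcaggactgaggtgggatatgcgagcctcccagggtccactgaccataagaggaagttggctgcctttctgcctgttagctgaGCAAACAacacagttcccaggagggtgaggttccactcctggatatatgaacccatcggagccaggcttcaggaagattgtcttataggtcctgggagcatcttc
Cyp2f2: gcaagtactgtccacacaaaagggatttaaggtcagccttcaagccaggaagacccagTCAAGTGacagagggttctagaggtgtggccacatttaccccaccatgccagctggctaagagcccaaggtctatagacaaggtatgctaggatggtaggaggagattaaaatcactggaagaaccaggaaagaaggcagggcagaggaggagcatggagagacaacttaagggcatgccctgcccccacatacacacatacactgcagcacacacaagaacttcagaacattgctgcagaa
Cbr2: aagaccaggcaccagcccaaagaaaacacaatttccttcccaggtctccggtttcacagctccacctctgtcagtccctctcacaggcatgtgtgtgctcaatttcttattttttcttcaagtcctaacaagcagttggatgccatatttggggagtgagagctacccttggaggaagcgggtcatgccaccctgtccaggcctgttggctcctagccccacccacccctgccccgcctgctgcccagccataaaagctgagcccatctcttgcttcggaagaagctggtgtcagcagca

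The first base of the match lies at -127 from the start in Bpifa1, at -55 (forkhead) and -174 (NKX2) in Scgb3a1 and at -192 in Cyp2f2, and the Cbr2 window has no match. Windows were read for 30 of the 40 genes, the first listed for each. Members on 1 chromosome were left out of this count. A forkhead match was found in 7 of these 30 and an NKX2 match in 5, against 13.5% and 11.5% of all 32851 windows. The shares over all windows include that chromosome and every window of a gene, so the bases differ. Of the 9 airway secretory genes among the 30, 3 held a forkhead and 3 an NKX2 match. A C/EBP motif (TTGCNNAA) was found in 1 of the 30 windows and in 10.8% of all windows. These matches are letters only and no measure of binding.

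Scgb1a1, the main secreted protein of club cells, read 118.5 in Cyc 1 and 10194.7 in Cyc 2, against 1783.7 in Wt 1 and 3.2 in Wt 2. Cyc 2 was 86.0-fold above Cyc 1 and 5.72-fold above Wt 1, and at least 204-fold above Wt 2. The related secretoglobin gene Scgb3a2 read 37.0 and 5569.1 in Cyc 1 and Cyc 2, against 697.6 and 13.8 in Wt 1 and Wt 2. Both genes were thus read in each genotype at a high and a low level, and the ranges of Cyc and Wt overlap. Scgb3a1, a secretoglobin of the larger airways, was above 50 in all pools, with 502.4 and 5621.9 in Cyc 1 and Cyc 2, against 1066.9 and 349.2 in Wt 1 and Wt 2. It kept the order of the other secretoglobins but had a narrower range, with Cyc 2 16.1-fold above Wt 2 and Wt 1 2.12-fold above Cyc 1.

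Bpifa1 and Bpifb1 encode secreted defence proteins of the upper airway. Bpifa1 read 5.2 and 7270.7 in Cyc 1 and Cyc 2, against 2111.7 and 14.5 in Wt 1 and Wt 2. Its high and low pools were far apart, at least 145-fold for Cyc 2 over Wt 2 and at least 42.2-fold for Wt 1 over Cyc 1. Bpifb1 read 14.0 and 325.3 in Cyc 1 and Cyc 2, against 57.5 and 6.7 in Wt 1 and Wt 2, so that Wt 1 was only just above the background level. Its second probe set read -19.9 and 242.4 in Cyc 1 and Cyc 2, against 22.0 and -0.4 in Wt 1 and Wt 2. That probe set was thus under 50 in Wt 1. Wfdc2, a secreted protease inhibitor family member, read 19.9 and 1069.2 in Cyc 1 and Cyc 2, against 161.7 and 8.7 in Wt 1 and Wt 2. Reg3g, an antibacterial lectin, was above 50 in Cyc 2 alone, with -30.0 and 530.5 in Cyc 1 and Cyc 2, against 33.4 and -32.1 in Wt 1 and Wt 2.

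Cyp2f2, a cytochrome P450 of club cells, read 21.7 and 1790.4 in Cyc 1 and Cyc 2, against 496.3 and 11.5 in Wt 1 and Wt 2. Cbr2, a carbonyl reductase of the lung, read 52.7 and 2215.9 in Cyc 1 and Cyc 2, against 510.1 and 19.1 in Wt 1 and Wt 2. These enzyme genes had the same order of pools as the secretoglobins, with Cyc 2 3.61-fold and 4.34-fold above Wt 1. Sec14l3, a lipid-binding protein, read 30.8 and 898.1 in Cyc 1 and Cyc 2, against 119.0 and 28.0 in Wt 1 and Wt 2, and its other 2 probe sets had the same high pool. Tff2, a secreted trefoil peptide, stayed under 50 in all pools, with its highest value of 47.9 in Cyc 2.

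Gabrp, a GABA receptor subunit, did not share the pattern. It read 71.2 and 69.0 in Cyc 1 and Cyc 2, against 52.7 and 54.5 in Wt 1 and Wt 2. A second probe set of the gene read 29.4 and 114.3 in Cyc 1 and Cyc 2, against 44.7 and 24.9 in Wt 1 and Wt 2, so the 2 probe sets of Gabrp disagree on the order of the pools.

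**Figure D1:**
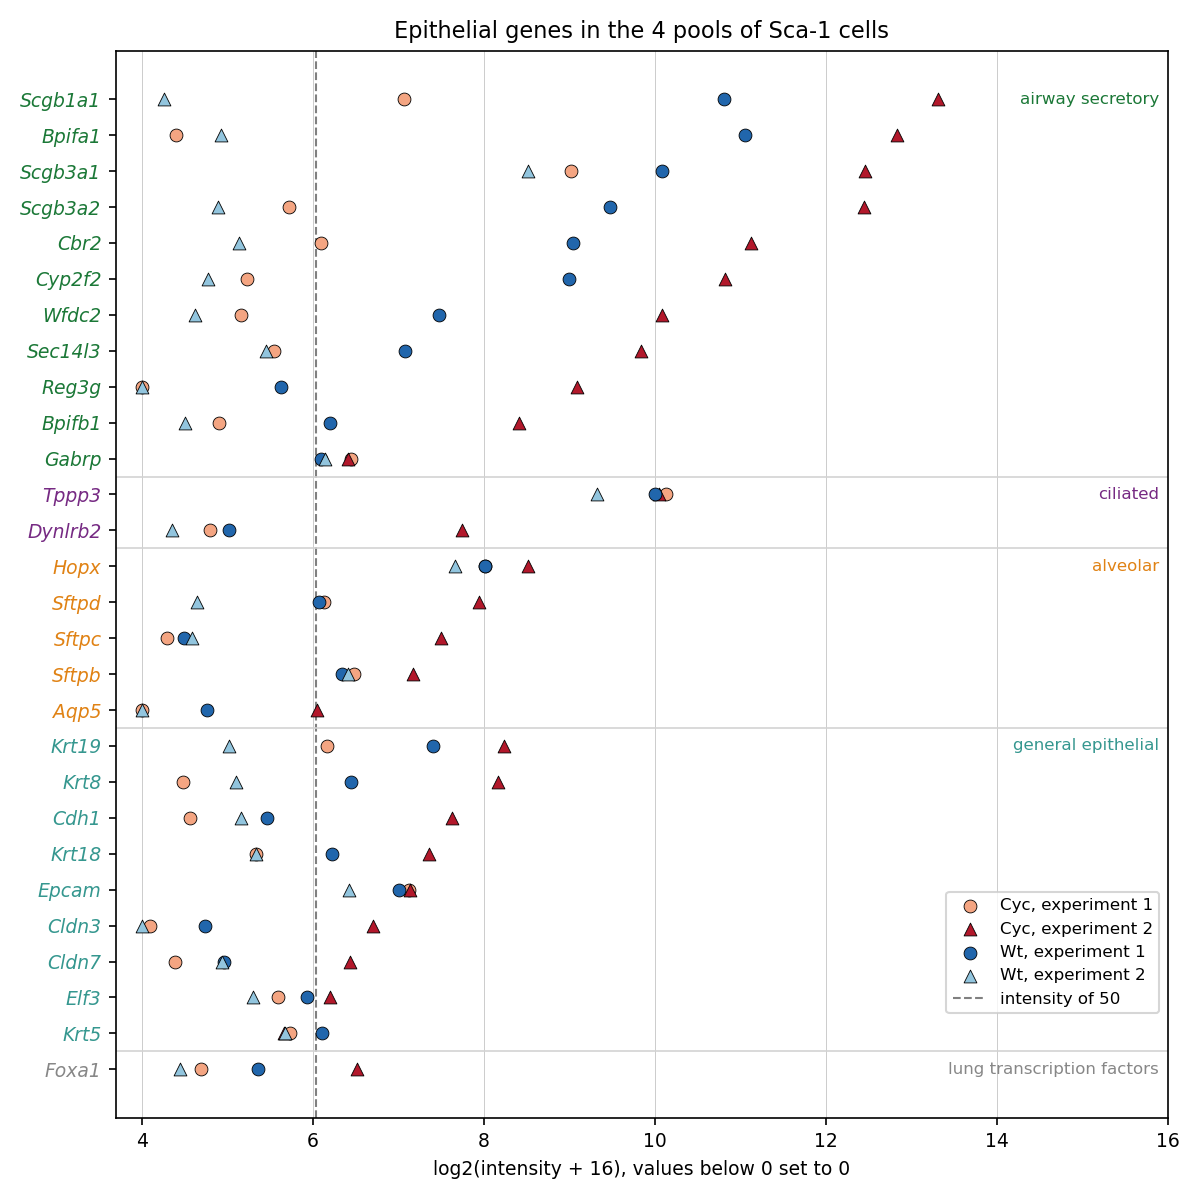
Log2(intensity + 16) of the 28 members that reached an intensity of 50 (dashed line) in at least 1 pool, 1 row per gene and 1 point per pool, with Cyc in red shades and Wt in blue shades, circles for experiment 1 and triangles for experiment 2. In most airway secretory rows Cyc 2 is at the right, Wt 1 lies between, and Cyc 1 and Wt 2 are at the left, while Gabrp, Tppp3, Hopx, Sftpb and Epcam have their 4 points close together.

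Ciliated cell genes were near background in most pools. Foxj1, the transcription factor that drives the making of motile cilia, was at 25.7 or less in every pool. Dynlrb2, a dynein light chain, was above 50 in Cyc 2 alone, with 11.8 and 198.8 in Cyc 1 and Cyc 2, against 16.5 and 4.4 in Wt 1 and Wt 2, which is at least 3.98-fold above each of the others. Tppp3, a tubulin-binding protein that is also made outside the airway, read 1101.7 and 1042.3 in Cyc 1 and Cyc 2, against 1012.6 and 626.0 in Wt 1 and Wt 2, so 3 pools were close and Wt 2 was lower. Of 26 other ciliated cell genes with a probe set, 10 reached 50 in Cyc 2, and 1 of them, Mlf1, also did so in the other pools. Among the 10, 1110017D15Rik read -0.3 and 124.2 in Cyc 1 and Cyc 2, against 6.6 and 6.8 in Wt 1 and Wt 2. Rsph1, a radial spoke protein of cilia, read 24.5 and 77.1 in Cyc 1 and Cyc 2, against 10.8 and 6.6 in Wt 1 and Wt 2. In Wt 1, where most secretory members were read, only Mlf1 of this list was at 50 or more. Since the values of these ciliated genes in Cyc 2 were low, a level in Wt 1 several times lower would fall under 50 and could not be read. Whether the 2 classes differ in Wt 1 can therefore not be told.

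Alveolar genes were for the most part low or alike in all pools. Of the 10 with a probe set of their own, 5 were under 50 in every pool at their representative probe set, namely Ager, a receptor of type 1 cells, Cldn18, a claudin of alveolar junctions, Slc34a2, a phosphate transporter, Napsa, a protease of surfactant processing, and Sftpa1, a surfactant protein gene. The median log2 difference of the 10 genes, Cyc minus Wt, was 0.03 in experiment 1 and 0.81 in experiment 2. For the 5 that reached 50 it was 0.01 and 2.05, and all 5 were highest in Cyc 2. The 11 airway secretory genes that reached 50 had medians of -2.31 and 5.46. Sftpc, the surfactant protein made by type 2 cells alone, read 3.6 and 164.5 in Cyc 1 and Cyc 2, against 6.5 and 8.0 in Wt 1 and Wt 2. It was thus read in Cyc 2 alone, at least 3.29-fold above the others, but its second probe set was at 8.6 or less in all pools. Sftpa1 likewise reached 50 only at its second probe set and in Cyc 2, with -95.6 and 59.3 in Cyc 1 and Cyc 2, against -101.4 and -27.9 in Wt 1 and Wt 2. Aqp5, a water channel of type 1 and gland cells, had its highest value in Cyc 2, at 50.4, and 11.1 or less in the other pools.

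Sftpd, a surfactant lectin that is also made in other tissues, read 54.0 and 230.7 in Cyc 1 and Cyc 2, against 51.3 and 9.1 in Wt 1 and Wt 2. Its genotypes do not overlap, though Cyc 1 and Wt 1 were close. Sftpb, a surfactant protein that club cells also make, read 73.4 and 128.4 in Cyc 1 and Cyc 2, against 65.3 and 69.2 in Wt 1 and Wt 2, with Cyc 2 1.86-fold above Wt 2. Hopx, a homeodomain protein of type 1 cells and of heart muscle, read 243.7 and 350.4 in Cyc 1 and Cyc 2, against 242.3 and 187.4 in Wt 1 and Wt 2. For both genes the pools of experiment 1 were close to each other.

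Other alveolar genes from lists of type 2 and type 1 markers mostly did not share the order of the secretory genes, but most that reached 50 were read in all pools. Abca3, a lipid transporter of lamellar bodies, read 600.4 and 889.9 in Cyc 1 and Cyc 2, against 560.6 and 700.9 in Wt 1 and Wt 2. Of 9 type 2 genes 5 reached 50, all of them in every pool. Of 10 type 1 genes 7 did so in Cyc 2, and 6 in each of the other pools. Which cells these signals came from was not tested. Over all genes of the 2 lists the median log2 differences, Cyc minus Wt, were between -0.19 and 0.34 in the 2 experiments. For those that reached 50 they were between -0.31 and 0.34. Lyz1, a lysozyme, had its high value in Cyc 2, with 212.3 and 1042.9 in Cyc 1 and Cyc 2, against 237.8 and 96.3 in Wt 1 and Wt 2. The macrophage lysozyme gene Lyz2 had the same order of pools, with 166.5 and 560.1 in Cyc 1 and Cyc 2, against 182.4 and 76.9 in Wt 1 and Wt 2. Other genes of these lists departed in other ways. Pdpn, a glycoprotein of type 1 cells, was low in Wt 2, with 303.3 and 358.5 in Cyc 1 and Cyc 2, against 381.0 and 129.0 in Wt 1 and Wt 2, and Akap5 was high there, with 57.8 and 82.7 in Cyc 1 and Cyc 2, against 77.5 and 179.5 in Wt 1 and Wt 2.

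Of the general epithelial genes, keratins 8 and 19 had the same high and low pools as the airway secretory genes. Krt8, a keratin of simple epithelia, read 6.3 and 272.2 in Cyc 1 and Cyc 2, against 71.6 and 18.5 in Wt 1 and Wt 2. Its partner Krt18 read 24.4 and 147.8 in Cyc 1 and Cyc 2, against 58.9 and 24.4 in Wt 1 and Wt 2. Krt19 read 56.1 and 285.5 in Cyc 1 and Cyc 2, against 153.7 and 16.4 in Wt 1 and Wt 2. In all of these keratins Cyc 2 was highest and Wt 1 the next, and the other 2 probe sets of Krt8 read under 50 outside Cyc 2. The basal cell keratin Krt5 did not follow them, as it was at 37.3 and 34.7 in Cyc 1 and Cyc 2, against 53.2 and 35.0 in Wt 1 and Wt 2.

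Junction genes were read in Cyc 2 alone. Cdh1, which encodes E-cadherin, read 7.6 and 181.4 in Cyc 1 and Cyc 2, against 28.2 and 19.9 in Wt 1 and Wt 2. The claudin genes Cldn3 and Cldn7 reached 88.4 and 70.7 in Cyc 2 and were at 15.1 or less in the other pools, and Cldn4 was under 50 in all. Epcam, an adhesion molecule of epithelia, read 124.0 and 124.8 in Cyc 1 and Cyc 2, against 113.0 and 69.8 in Wt 1 and Wt 2. Its other probe set read -0.1 and 101.3 in Cyc 1 and Cyc 2, against 11.9 and 19.0 in Wt 1 and Wt 2, so the 2 probe sets of Epcam disagree. The epithelial transcription factor Elf3 read 32.2 and 57.6 in Cyc 1 and Cyc 2, against 45.0 and 23.6 in Wt 1 and Wt 2, and Muc1, a membrane mucin, was at 30.3 or less.

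Of the transcription factors of lung epithelium, Foxa1 read 9.8 and 75.5 in Cyc 1 and Cyc 2, against 25.1 and 5.8 in Wt 1 and Wt 2. Foxa2 was at 12.5 or less and Nkx2-1, which is needed for the lung and thyroid to form, at 19.7 or less. At this signal their levels could not be compared between pools.

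Over the whole set, 28 members reached 50 in at least 1 pool and 11 did not. The number at 50 or more was 10 in Cyc 1 and 27 in Cyc 2, against 19 in Wt 1 and 6 in Wt 2. Of all 18193 genes, 9907 in Cyc 1 and 10644 in Cyc 2 were at 50 or more, against 9973 in Wt 1 and 10032 in Wt 2. Of the 28, 10 were read in 1 pool only, which was Cyc 2 except for Krt5, and 8 were read in Cyc 2 and Wt 1 only. The 6 members read in all pools were Scgb3a1, Gabrp, Tppp3, Sftpb, Hopx and Epcam. How many of all genes were read in 1 pool only, in Cyc 2 and Wt 1 only or in all pools was not counted. In Cyc 2 were the highest values of 25 of the 28 members, where Cyc 2 was also highest for 46.8% of all 10972 genes that reached 50, and 19 of the 28 were lowest in Wt 2, against 18.9% of these genes.

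Within experiment 1, 11 of 19 members that reached 50 in either pool were lower in Cyc than in Wt by 2-fold or more and 0 were higher, against 1.62% and 1.17% of all genes so read. Within experiment 2, 21 of 27 members were higher in Cyc by 2-fold or more and 0 were lower, against 5.5% and 0.306% of all genes. The same 11 members were lower in experiment 1 and higher in experiment 2. These counts are on the scale with 16 added, on which values under 50 still count. With every value under 50 raised to 50, a choice made with these values known, 9 of 19 members were 2-fold or more lower in Cyc in experiment 1 (1.34% of all genes), and 17 of 27 higher in Cyc in experiment 2 (4.52%). Bpifb1 and Krt8 then dropped out in experiment 1, and Aqp5, Cldn3, Cldn7 and Foxa1 in experiment 2. The 11 members of the first count were Scgb1a1, Scgb3a1, Scgb3a2, Bpifa1, Bpifb1, Sec14l3, Cyp2f2, Cbr2 and Wfdc2 of the airway secretory class, and Krt8 and Krt19. Between pools of 1 genotype, 21 of 27 members were higher in Cyc 2 than in Cyc 1 by 2-fold or more, and 0 were lower, against 11.6% and 0.537% of all genes. Of 19 members, 12 were higher in Wt 1 than in Wt 2 and 0 were lower, against 1.35% and 2.05%. With values under 50 raised to 50, these counts were 17 of 27 (11.1% of all genes) and 9 of 19 (0.935%). The members were chosen on such differences, so these counts describe the choice and carry no test.

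**Figure D2:**
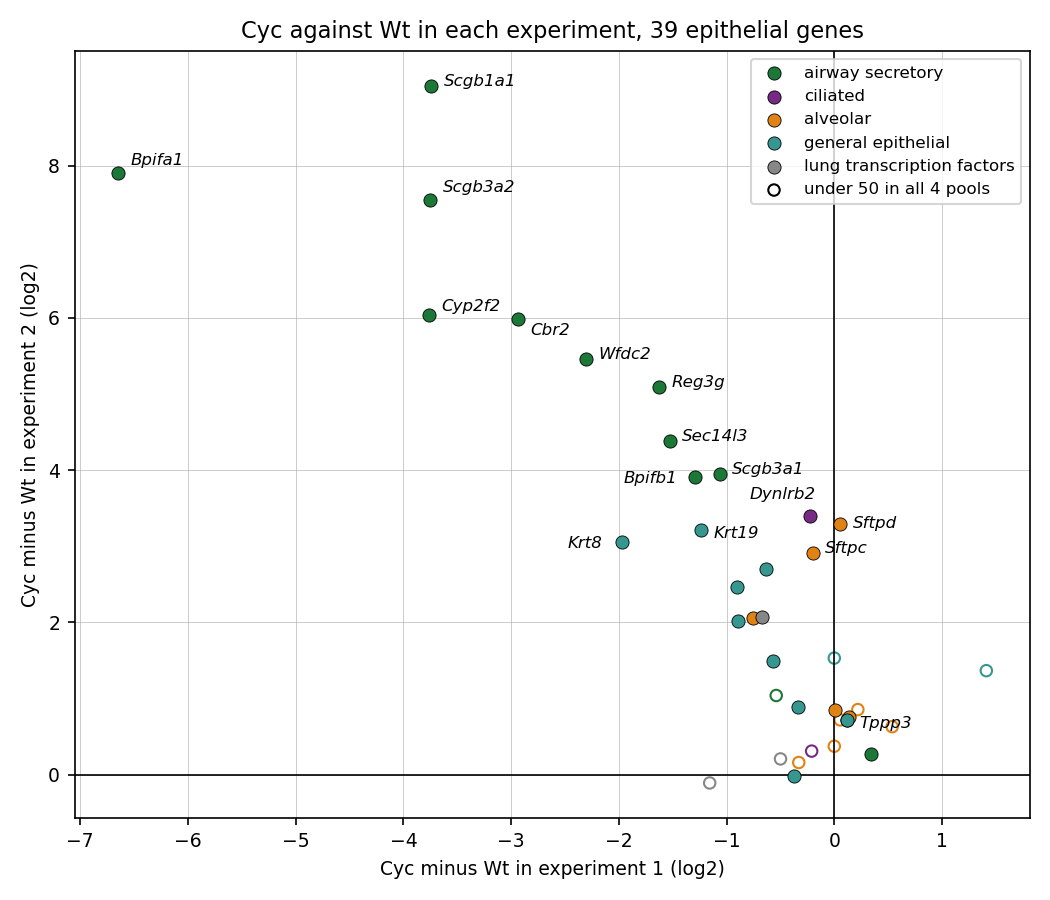
Difference between Cyc and Wt on the log2 scale in experiment 1 (horizontal axis) and experiment 2 (vertical axis) for the 39 members with a probe set of their own, coloured by class, with open circles for those under 50 in all 4 pools. Airway secretory genes lie to the upper left, lower in Cyc in experiment 1 and higher in Cyc in experiment 2, with Bpifa1 the farthest to the left, while Sftpd, Sftpc and Dynlrb2 lie near 0 in experiment 1. Distances of genes with a pool under 50 depend on the 16 added before log2.

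With the 2 experiments combined, 18 members could be tested on 20 probe sets, those with 50 or more on at least 2 arrays. In limma all 18 had fitted log2 differences above 0, Cyc minus Wt, between 0.31 and 2.65, with standard errors between 0.22 and 3.41, and 48.4% of the 17924 tested probe sets with 1 symbol were above 0. This direction was not kept without Cyc 2, as 6 of the 18 members and 34.7% of the probe sets were then above 0. The share of members above 0 was thus close to that of all probe sets. Among the 12 members below 0 were Bpifa1 at -3.59, Cyp2f2 at -1.65, Scgb3a2 at -1.46, Krt8 at -1.30 and Scgb1a1 at -0.47. Without Wt 2, 11 of the 18 members and 63.1% of the probe sets were above 0, again close to each other. At the thresholds of the study, 2-fold and an unadjusted p under 0.05, 0 members were higher and 0 lower in Cyc, against 1.12% and 0.194% of 10315 genes. In limma an unadjusted p under 0.05 was reached by 0 of the 18 members, against 412 of all 20680 tested probe sets. In a Student's t-test it was reached by 1 member, Gabrp, against 644 of these probe sets. The study called its array genes with an error model and not with a t-test. For Scgb1a1 the fitted difference was 2.65 with a 95% confidence interval from -5.13 to 10.44, so it was smaller than the spread between pools of 1 genotype. The lowest unadjusted p, 0.0899, was that of Sftpd (limma; log2 difference 1.68, standard error 0.79, adjusted p = 0.999989), whose values were higher in 2 of 2 Cyc pools. Without Cyc 1, which leaves Cyc 2 as the single Cyc array, 11 members passed the thresholds as higher in Cyc, against 3.89% of all genes. Without Cyc 2, 0 members passed as higher, against 0.892% of all genes, and 0 as lower, against 5.55%.

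In 6 of the 28 members the 2 Cyc values exceeded the 2 Wt values, and in 0 they were below them, against 18.9% and 7.38% of the 10972 genes. They were Gabrp, Tppp3, Sftpb, Sftpd, Hopx and Epcam, whose log2 differences between Cyc 1 and Wt 1 were between 0.01 and 0.34. The secretoglobin, Bpifa1 and enzyme genes were not among them.

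Few genes over the array had Cyc 2 and Wt 1 above Cyc 1 and Wt 2 by 2-fold or more. How many had this order by any amount was not counted. Only 29 of 10972 genes (0.264%) were at 50 or more in both Cyc 2 and Wt 1 and 2-fold or more above both other pools, and 0 genes had the opposite arrangement. Of these 29 genes, 11 were members, 9 of them airway secretory, 7 were on a list of 10 mesothelial genes and 2, Ltf and Ces1d, on a list of other airway secretory genes. Ltf, the iron-binding defence protein lactoferrin, read 16.8 and 1068.6 in Cyc 1 and Cyc 2, against 126.4 and 18.3 in Wt 1 and Wt 2. The remaining 9 were C2, Ccn6, Dmkn, Fxyd3, Lgals3, Mpzl2, Myrf, Nkain4 and Nkx2-3. The selection was made after the values had been seen.

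Of the 10 listed mesothelial genes, 7 shared the high and low pools with the airway secretory members, at another ratio of Cyc 2 to Wt 1. Upk3b, a uroplakin of mesothelium, read 35.2 and 702.5 in Cyc 1 and Cyc 2, against 368.9 and 20.7 in Wt 1 and Wt 2. Gpm6a, a membrane glycoprotein, read 36.7 and 427.7 in Cyc 1 and Cyc 2, against 207.5 and 41.1 in Wt 1 and Wt 2. Msln, which encodes mesothelin, read 14.1 and 209.3 in Cyc 1 and Cyc 2, against 76.5 and 25.8 in Wt 1 and Wt 2. Among the 29 genes the log2 difference of Cyc 2 minus Wt 1 ran from 1.78 to 2.97 with a median of 2.38 for the 9 airway secretory genes, and from -0.99 to 1.30 with a median of 0.99 for the 7 mesothelial genes. It was 1.72 for Krt8 and 0.83 for Krt19, keratins that both cell kinds contain. The value of Krt19 falls within the mesothelial range, and that of Krt8 between the 2 ranges. Among the 29 genes, which were selected by this pattern, airway secretory members and mesothelial genes did not overlap in this difference, which is a description of 2 arrays. Of the airway secretory members outside the 29, Gabrp (0.31) fell within the mesothelial range. Reg3g (3.47) and Tff2 (1.46) lay above it. The 2 genes of the list of other airway secretory genes lay apart, with 2.93 for Ltf and 0.13 for Ces1d, a carboxylesterase, which falls within the mesothelial range. Ces1d read 55.1 and 247.4 in Cyc 1 and Cyc 2, against 224.5 and 89.2 in Wt 1 and Wt 2. Wt1, the transcription factor gene of mesothelium and epicardium, did not share the pattern, with 478.2 and 596.4 in Cyc 1 and Cyc 2, against 440.0 and 597.4 in the Wt pools of experiments 1 and 2. Nor did Cldn15, with 231.3 and 288.2 in Cyc 1 and Cyc 2, against 187.2 and 126.6 in Wt 1 and Wt 2. Bnc1 was under 50 in Wt 1, with 3.7 and 108.1 in Cyc 1 and Cyc 2, against 38.2 and 3.8 in Wt 1 and Wt 2.

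**Figure D3:**
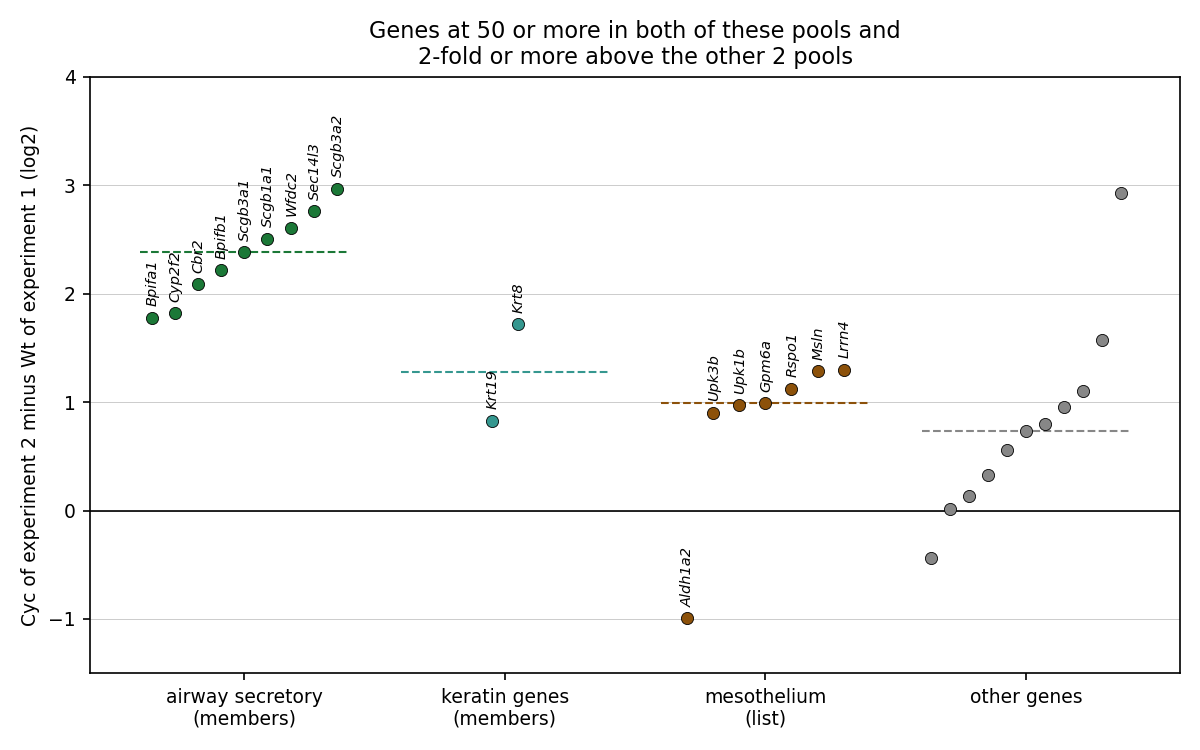
Cyc of experiment 2 minus Wt of experiment 1 on the log2 scale for the 29 genes at 50 or more in both of these pools and 2-fold or more above the other 2 pools, 1 point per gene with the median of each set as a dashed line. The 9 airway secretory genes lie between 1.78 and 2.97, above the 7 mesothelial genes, which reach 1.30.

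By the distance between centred log2 profiles over the 4 pools, the members nearest to Scgb1a1 were Scgb3a2 (root mean square distance 0.81), Cyp2f2 (1.14), Cbr2 (1.17), Bpifa1 (1.28) and Wfdc2 (1.49). The 10 nearest genes outside the members were Nkain4, Xist, Upk3b, Ltf, AU040972, Upk1b, Dmkn, Gpm6a, Lgals3 and Chil3, at distances from 1.67 to 2.27. With 4 points such a likeness is weak, as Xist shows, which was low in Wt 2 only. Xist was close in Cyc 1 and Wt 1, the pools in which Scgb1a1 differed 15.1-fold, with Wt 1 higher. The part of the sex of the animals in the other differences was not tested.

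Further markers of the airway gave few values. Of 14 other airway secretory genes with a probe set, 8 reached 50, and 5 of the 8, namely Lypd2, Muc5b, Pigr, Cyp2b10 and Agr2, did so in Cyc 2 alone, with 130.0 or less. Cyp4b1, a P450 that endothelium also expresses, was read at similar levels in all pools, with 1142.0 and 1748.8 in Cyc 1 and Cyc 2, against 1747.7 and 2138.8 in Wt 1 and Wt 2. Among tracheal basal and squamous genes, only Krt15 reached 50, at 64.6 in Cyc 2. None of the 5 thymic epithelial and 4 thyroid genes with a probe set did so in any pool. Of 18 other general epithelial genes 6 reached 50, with no common order of pools. Krt7, a keratin of simple epithelia, read 18.6 and 102.6 in Cyc 1 and Cyc 2, against 49.8 and 4.5 in Wt 1 and Wt 2. Ehf, an epithelial transcription factor, was lowest in Cyc 2, with 48.6 and 22.9 in Cyc 1 and Cyc 2, against 57.2 and 36.1 in Wt 1 and Wt 2. Grhl2, another such factor, read 59.2 and 96.3 in Cyc 1 and Cyc 2, against 61.3 and 78.8 in Wt 1 and Wt 2, and Lad1, an anchoring filament protein, was above 50 only in Wt 2, at 53.3.

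Markers of other cell kinds also moved between the pools, and their part in the values above was not tested. The summed intensity of the 10 mesothelial genes was 896 and 3128 in Cyc 1 and Cyc 2, against 1926 and 908 in Wt 1 and Wt 2, with 10 of 10 at 50 or more in Cyc 2 and 9 of 10 in Wt 1. The 9 macrophage genes summed to 469 and 1318 in Cyc 1 and Cyc 2, against 473 and 233 in Wt 1 and Wt 2. Those at 50 or more numbered 3 in Cyc 1 and 8 in Cyc 2, against 4 in Wt 1 and 1 in Wt 2. Of the 8, 7 were highest in Cyc 2, while Adgre1 was highest in Wt 1, with 69.1 there and 55.0 in Cyc 2. The 6 B cell genes summed to 273 and 1769 in Cyc 1 and Cyc 2, against 423 and 284 in Wt 1 and Wt 2. Cyc 2 therefore held the highest sums of these cell kinds too, but Wt 1 stood out in the mesothelial genes rather than in the macrophage genes. Of 7 alveolar macrophage genes with a probe set, 5 were under 50 in all pools. Chil3, a chitinase-like protein of lung macrophages, was read in Cyc 2 alone, with 0.0 and 165.5 in Cyc 1 and Cyc 2, against 18.5 and -2.9 in Wt 1 and Wt 2. Car4, a carbonic anhydrase that endothelium also carries, had its lowest value there, with 1739.2 and 1256.2 in Cyc 1 and Cyc 2, against 2353.5 and 2563.4 in Wt 1 and Wt 2. The 7 smooth muscle genes summed to 12409 and 23790 in Cyc 1 and Cyc 2, against 10627 and 15088 in Wt 1 and Wt 2, and all 6 that reached 50 were highest in Cyc 2. The 11 fibroblast genes summed to 61102 and 58975 in Cyc 1 and Cyc 2, against 62733 and 41222 in Wt 1 and Wt 2, lowest in Wt 2. The 14 cardiomyocyte genes summed to 2509 and 2328 in Cyc 1 and Cyc 2, against 4374 and 2813 in Wt 1 and Wt 2, so their highest pool was Wt 1.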

How the data were processed

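Sca-1 cells of 2 Cyc and 2 Wt pools were profiled on Affymetrix 3′ expression arrays. The authors processed the arrays in Resolver, and the deposited values are normalized probe set intensities on a linear scale, from -517 to 19512, whose background correction and scaling are not given in the sources used here. They were not normalized again. A value below 0 was replaced by 0, and 16 was added ahead of the log2 transformation.

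Probe sets that reached 50 on at least 2 of 4 arrays, 20680 in number, entered 1 fit over the whole table in limma 3.58.1 (R 4.3.3), two-sided, with Benjamini-Hochberg adjustment. The procedure was tested on simulated data. The p-values measure only the spread between these pools. Thresholds were those of the study (2-fold, unadjusted p under 0.05), without its error model. Symbols came from the platform annotation, where 34945 of 45037 probe sets have 1 symbol, 932 several and 9160 none, and 6 list symbols were matched through RefSeq synonyms. Of 229 symbols on 22 marker lists, 211 had a probe set.

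The members and lists were chosen with earlier results of these data known. By rule, values of all pools are printed for members at 50 or more in at least 1 pool as far as needed, up to 4 genes of a list, and the 10 genes most like Scgb1a1. Genes of the lists that stand apart, and the 29 genes named by their pattern, were named after their values had been seen. Alternatives were other pseudocounts, filters, scalings, a replicate block, an intensity trend, a Student's t-test, the mean over probe sets and leaving out each pool. Raising values under 50 to 50 for the counts between single pools was added with the values known.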

Additional observations from a re-analysis of the deposited data

Results flagged for a closer look

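For 11 members the difference between Cyc and Wt had opposite directions in the 2 experiments, 2-fold or more lower in Cyc in experiment 1 and 2-fold or more higher in Cyc in experiment 2. With 1 pool per genotype in each experiment this difference was not tested. The difference of experiment 2 minus that of experiment 1 was 12.79 for Scgb1a1, 5.01 for Scgb3a1 and 11.30 for Scgb3a2 on the log2 scale. It was 14.55 for Bpifa1, 5.20 for Bpifb1, 5.90 for Sec14l3 and 7.76 for Wfdc2. For the enzymes Cyp2f2 and Cbr2 it was 9.80 and 8.93, and for the keratins Krt8 and Krt19 it was 5.04 and 4.46. All but Scgb3a1 have at least 1 pool under 50, so these sizes depend on the 16 added before log2. With every value under 50 raised to 50 and nothing added, the difference was 5.10 for Scgb3a1 and at least 11.58 for Scgb1a1, 10.60 for Scgb3a2, 12.58 for Bpifa1, 2.90 for Bpifb1, 5.42 for Sec14l3, 6.11 for Wfdc2, 8.47 for Cyp2f2, 8.74 for Cbr2, 2.96 for Krt8 and 3.97 for Krt19.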

How the results depend on the processing

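The number of arrays and the low signal of many members limit these results. The counts of members higher and lower in Cyc, 0 and 0, and the 176 probe sets changed over the whole table changed with some settings. The cause was not tested. The member called as higher was Cldn4 without a filter on low values (count 1), and Sftpd with quantile normalization (1) and with scaling to the same median (1). Leaving out 1 pool gave 0 to 11 members higher, with 11 without Cyc 1 (Scgb1a1, Scgb3a1, Scgb3a2, Bpifb1, Sec14l3, Cyp2f2, Cbr2, Wfdc2, Sftpd, Krt8 and Krt18) and 1, Sftpd, without Wt 1. In the fits without 1 pool the single pool left is assumed to vary like the other genotype. No setting called a member lower. The 176 probe sets became 112 with 50 added before log2, 54 in the methods' t-test, and 158 to 1167 without 1 pool, of which 641 without Cyc 1 and 1167 without Cyc 2. The median log2 difference of general epithelial genes in experiment 2 was 1.53, and 3.13 with 1 added before log2. The airway secretory medians of -1.97 and 5.27 in experiments 1 and 2 became -3.15 and 6.78 with 1 added, and -1.33 and 4.04 with 50 added. The class medians kept their direction under the pseudocounts, scalings and the mean over probe sets.

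The deviations of same-numbered pools from their genotype means had a correlation of 0.447 over 20680 probe sets, but with 2 pairs and no statement in the labels the pairing stays a hint. With the replicate number as a block, 0 members were higher and 0 lower. In this fit 238 probe sets changed, of which 1 had an adjusted p under 0.05. An unadjusted p under 0.05 was reached by 0 members and by 1443 of the 20680 probe sets.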
